A study of Mus musculus with 8 samples.

Results

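The aryl hydrocarbon receptor, its partner, its feedback inhibitors and the enzymes it controls were followed here in mouse epidermis treated with a carcinogen that is itself a ligand and substrate of this system. The 9 genes were chosen by name: the receptor Ahr, its partner Arnt, the inhibitors Ahrr and Tiparp, the P450 genes Cyp1a1, Cyp1a2 and Cyp1b1, the epoxide hydrolase gene Ephx1 and the aldehyde dehydrogenase gene Aldh3a1. Each symbol matched 1 of the 55487 gene rows of the count files through the GENCODE M21 annotation of mm10. Of the 9, 8 passed the filter on low counts and were tested among 19450 genes. Cyp1a2 had no counts in any library.

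RNA sequencing had been done on the epidermis of dorsal skin from wild-type FVB mice aged 7 to 8 weeks, with 4 groups of 2 libraries. The same age is listed for every group. Whether it is the age at first treatment or at harvest is not known here. The DMBA group received 100 µl of DMBA, a polycyclic aromatic hydrocarbon, at 1 mg/ml on the skin once, and was harvested on day 10. The DMBA/TPA group received that DMBA dose followed by TPA, a phorbol ester used as a tumour promoter, at 0.1 mg/ml 2 times per week, and was harvested on day 52. Each treated group had acetone-treated mice of its own as control, called Control DMBA and Control DMBA TPA, and the labels give no harvest day for these. All groups shared the overnight separation of epidermis from dermis with Dispase II at 5 mg/ml. The labels do not say that the libraries of a group came from separate animals, so p-values measure only the spread between libraries, which may be technical.

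The receptor is a ligand-activated transcription factor of the bHLH-PAS family, held in the cytoplasm by HSP90 and its co-chaperones until a ligand such as a polycyclic hydrocarbon or a tryptophan photoproduct binds. It then moves to the nucleus, pairs with ARNT and binds DNA with the core GCGTG, from where it induces CYP1 genes. AHRR and TIPARP, both induced by the receptor, turn it down again. In skin, CYP1 enzymes oxidise DMBA to an epoxide, the microsomal epoxide hydrolase EPHX1 opens this to a diol, and a further oxidation gives the diol epoxide that reacts with DNA.

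Libraries held 26300400 to 36002886 counts in genes. Keratinocyte genes dominated every library: the summed level of 6 basal markers was 16682 to 33435 CPM (counts scaled per 1e6 of the TMM-adjusted library) and that of 6 suprabasal markers 12399 to 20894. Other cells differed between groups. The 8 fibroblast markers summed to 640.1 to 1142 CPM for Control DMBA and 60.6 to 108.2 for DMBA, and to 48.4 to 63.6 for Control DMBA TPA and 1312 to 3523 for DMBA/TPA. Of 8 T cell markers 8 were called lower in DMBA/TPA, against 18.3% of all genes. Their sums were 221.2 to 229.6 CPM in Control DMBA TPA and 68.3 to 77.1 in DMBA/TPA. In whole epidermis, fewer cells of a type and less RNA per cell cannot be told apart.

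The promoters of the genes whose values are described most closely are shown because the core letters of the receptor's element can be seen in them. They run from 250 bases before to 50 bases after the RefSeq start (GRCm38.p6; for Cyp1a1 this start lies inside the longer GENCODE gene), 5′ to 3′ on the gene's own strand, with the core GCGTG, or its reverse complement CACGC, in capitals. Ahrr lies at chr13:74292282-74292581 on the minus strand, Tiparp at chr3:65528197-65528496 on the plus strand, Cyp1a1 at chr9:57697363-57697662 on the plus strand and Cyp1b1 at chr17:79715012-79715311 on the minus strand.
Ahrr: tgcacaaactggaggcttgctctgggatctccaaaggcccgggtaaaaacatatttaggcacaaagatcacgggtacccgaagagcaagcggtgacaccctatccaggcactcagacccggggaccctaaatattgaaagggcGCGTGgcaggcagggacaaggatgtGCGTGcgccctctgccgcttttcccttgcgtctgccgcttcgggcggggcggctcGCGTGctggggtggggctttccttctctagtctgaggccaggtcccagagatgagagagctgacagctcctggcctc
Tiparp: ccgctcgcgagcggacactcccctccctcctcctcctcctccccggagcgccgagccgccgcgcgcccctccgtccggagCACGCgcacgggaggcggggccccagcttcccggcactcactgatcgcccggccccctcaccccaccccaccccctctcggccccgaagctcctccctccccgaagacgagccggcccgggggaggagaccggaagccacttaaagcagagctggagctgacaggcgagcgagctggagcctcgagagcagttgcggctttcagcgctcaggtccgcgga
Cyp1a1: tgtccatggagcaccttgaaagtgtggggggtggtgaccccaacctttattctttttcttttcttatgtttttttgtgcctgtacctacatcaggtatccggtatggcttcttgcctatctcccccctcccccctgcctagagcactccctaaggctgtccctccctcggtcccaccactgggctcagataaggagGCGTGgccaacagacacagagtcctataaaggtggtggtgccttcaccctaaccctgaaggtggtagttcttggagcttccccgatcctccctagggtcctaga
Cyp1b1: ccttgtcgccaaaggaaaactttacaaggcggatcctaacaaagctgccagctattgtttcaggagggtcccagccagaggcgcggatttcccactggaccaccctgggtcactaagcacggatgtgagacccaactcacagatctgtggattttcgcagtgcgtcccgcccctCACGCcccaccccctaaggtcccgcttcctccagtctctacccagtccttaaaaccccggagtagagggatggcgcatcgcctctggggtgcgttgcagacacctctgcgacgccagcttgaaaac

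Promoter entries matched 7 of the 9 genes, Ahr and Aldh3a1 having none. The 5-letter core, counted on both strands, stood 3 times in the Ahrr window, 1 time each in Arnt, Tiparp, Cyp1a1 and Cyp1b1, and 0 times in Cyp1a2 and Ephx1. At least 1 core stood in 32.4% of 32851 mouse promoter windows of the same length, and at least 3 in 3.91%. The longer motif TNGCGTG, which contains the core, was found 1 time in Ahrr and in none of the other 6, against 5.07% of all windows. A match is a description of the letters and not a bound site. Sequence outside these windows was not searched, so a count of 0 does not mean that a gene lacks the element.

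Per length of annotated exon, Ephx1 and Aldh3a1 were the most abundant of the 8 members with counts and the repressor Ahrr the least. Over the 8 libraries, Ephx1 averaged 47.7 CPM per kb, Aldh3a1 45.6, Ahr 29.4, Arnt 10.5, Cyp1b1 10.0, Tiparp 7.83, Cyp1a1 3.82 and Ahrr 0.68. The receptor was thus listed at a higher level per length than its partner in all 4 groups, for example 29.6 ± 3.78 against 10.4 ± 0.144 CPM per kb in Control DMBA (mean ± SD, n = 2). All further levels are CPM per gene, and compare libraries and not genes.

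**Figure D1:**
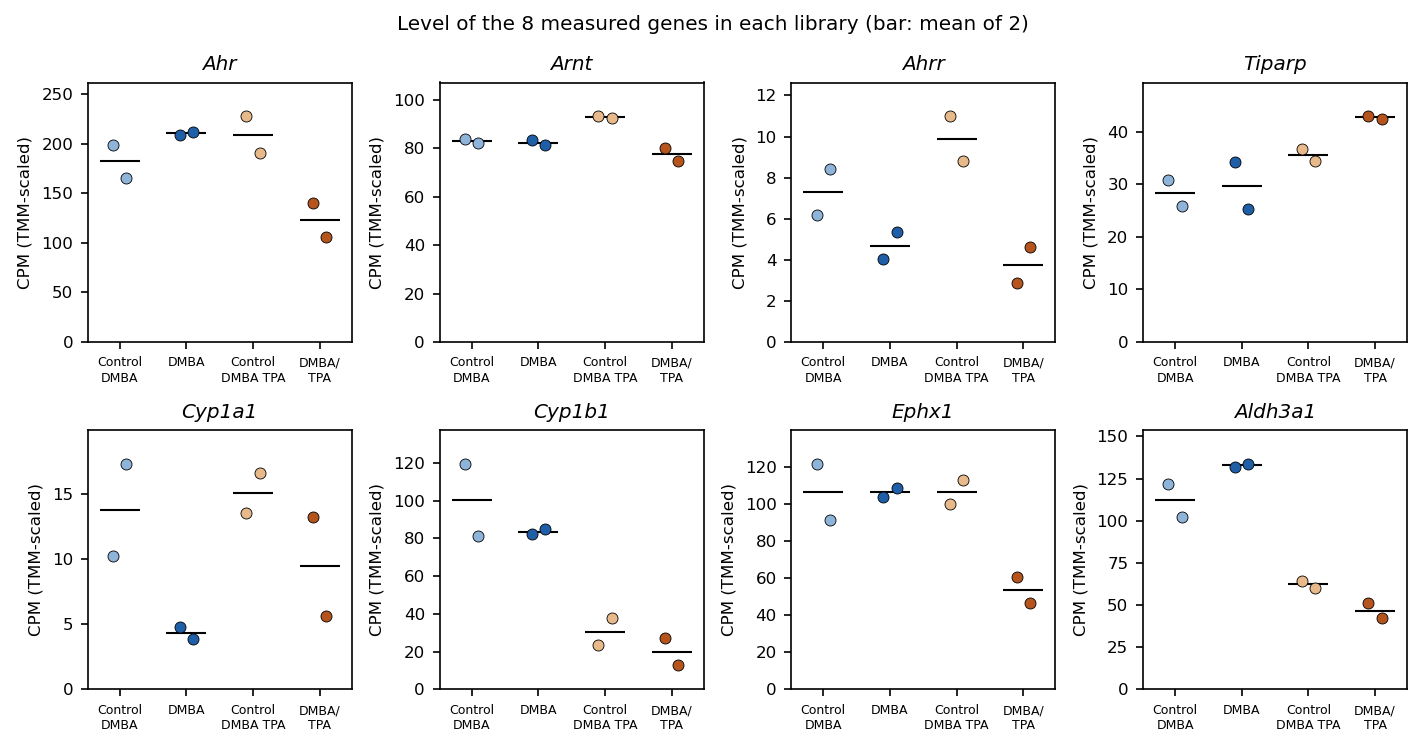
TMM-scaled CPM of the 8 members with counts in each library, 1 panel per gene with its own axis from 0, points for libraries and short lines for the mean of 2. Ahr and Ephx1 are lowest in both DMBA/TPA libraries and Cyp1a1 in both DMBA libraries.

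At day 10 after DMBA alone, no member was called. By the quasi-likelihood test of edgeR, with Benjamini-Hochberg adjusted p-values, 0 of 8 passed an adjusted p of 0.05, where 0.267% of all tested genes did. At an unadjusted p under 0.05 there was 1, Cyp1a1, and shares of all genes at that cut are not given here. DESeq2 called it at an adjusted p under 0.05 (2.24% of all genes called), and limma voom called none (0.237%). The median log2 difference of the members was -0.01, as it was over all genes. After DMBA and TPA, 5 of 8 fell and 0 rose, against 18.3% of all genes that fell and 22.4% that rose. The 5 were Ahr, Arnt, Ahrr, Ephx1 and Aldh3a1, and the members' median was -0.65 on the log2 scale. With library totals in place of TMM factors, the split of all called genes in DMBA/TPA turned from 4356 higher and 3561 lower to 3675 higher and 4489 lower.

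**Figure D2:**
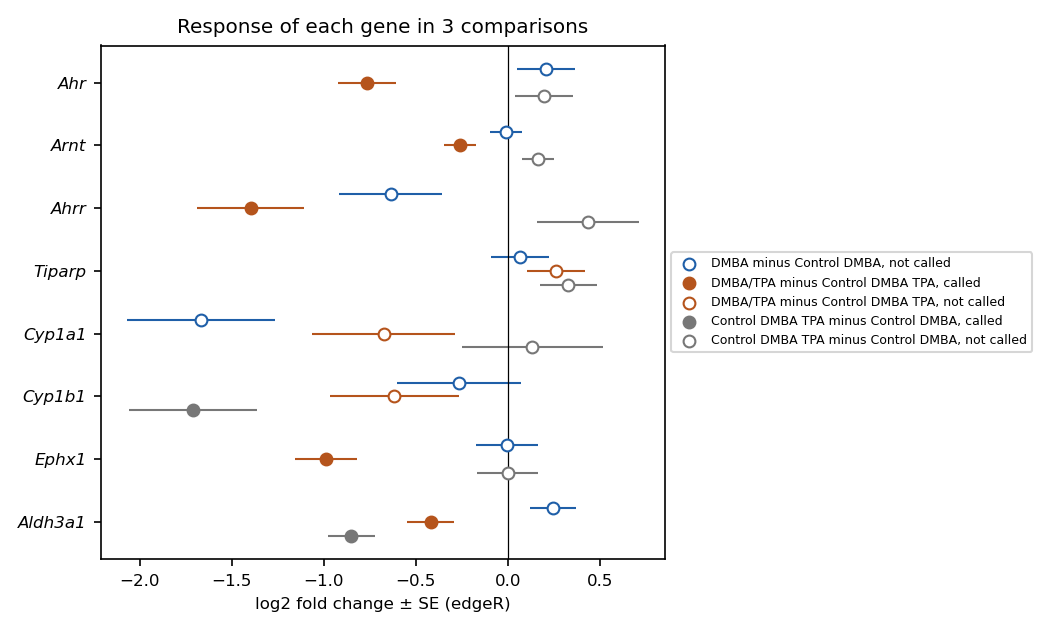
Log2 fold change of the 8 tested members in DMBA and in DMBA/TPA against their acetone groups and between the acetone groups, with bars of 1 standard error from edgeR and filled points where the adjusted p was under 0.05. Filled points are Ahr, Arnt, Ahrr, Ephx1 and Aldh3a1 in DMBA/TPA and Cyp1b1 and Aldh3a1 between acetone groups, all left of 0.

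Ahr (ENSMUSG00000019256, chromosome 12, 35497974 to 35535038, minus strand) gave 198.7 and 165.7 CPM for Control DMBA beside 208.7 and 211.9 for DMBA. Control DMBA TPA stood at 227.4 and 190.3, beside 139.9 and 106.2 for DMBA/TPA. Both DMBA/TPA libraries lay below the other 6. Ahr thus fell in DMBA/TPA by 0.76 ± 0.16 on the log2 scale (SE; edgeR adjusted p = 0.00721), whereas the difference after DMBA was 0.21 ± 0.16 (adjusted p = 0.844). The responses themselves differed by -0.97 ± 0.22 (adjusted p = 0.0309, where 3.95% of all genes were called lower in this test of the difference). Without Control DMBA TPA replicate 1 the fall had an adjusted p of 0.0593, and the difference of responses was not called when either Control DMBA TPA library, either DMBA library or Control DMBA replicate 2 was left out (0.0589 to 0.118). In order, DMBA, Control DMBA TPA and Control DMBA overlapped with their neighbours and DMBA/TPA stood apart. The T cell markers named above fell in DMBA/TPA too. After DMBA they summed to 153.2 to 154.3 CPM against 179.9 to 232.0 in Control DMBA, while both Ahr libraries lay above their acetone pair. Markers of other cells also changed in DMBA/TPA, the fibroblast markers named above among them. The part of any cell type in the Ahr values was not tested.

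Arnt (ENSMUSG00000015522, chromosome 3, 95434388 to 95497240, plus strand) encodes the shared partner through which the receptor and the hypoxia-inducible factors bind DNA. Its levels spanned only 75.0 to 93.3 CPM. Control DMBA gave 83.7 and 82.1, DMBA 83.3 and 81.3, Control DMBA TPA 93.3 and 92.6, and DMBA/TPA 80.2 and 75.0. It fell in DMBA/TPA by 0.26 ± 0.09 on the log2 scale (edgeR adjusted p = 0.0429). That call was kept under 4 of 17 alternatives, and was lost without each library in turn other than DMBA/TPA replicate 1 (0.0555 to 0.173). The difference after DMBA was -0.01 ± 0.09 (adjusted p = 0.998).

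Ahrr (ENSMUSG00000021575, chromosome 13, 74211118 to 74292331, minus strand), the repressor that competes with the receptor for ARNT, was the least abundant of the 8 members with counts, with 1653 over all libraries. The Control DMBA libraries held 6.16 and 8.44 CPM beside DMBA values of 4.04 and 5.33, and those of Control DMBA TPA held 11.0 and 8.79 beside DMBA/TPA values of 2.87 and 4.62. Each treated pair lay below its own acetone pair. The fall in DMBA/TPA was 1.40 ± 0.29 on the log2 scale, or 2.63-fold (edgeR adjusted p = 0.00728; 0.0524 without Control DMBA TPA replicate 1). After DMBA the difference was -0.64 ± 0.28 (adjusted p = 0.540), and the 2 responses did not differ by a called amount (-0.76 ± 0.40, adjusted p = 0.227).

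Tiparp (ENSMUSG00000034640, chromosome 3, 65528410 to 65555518, plus strand) encodes the mono-ADP-ribosyltransferase that modifies and restrains the receptor. Control DMBA gave 30.9 and 25.8 CPM and DMBA 34.2 and 25.2. Control DMBA TPA gave 36.7 and 34.5, beside 43.0 and 42.5 for DMBA/TPA. It was the only member whose DMBA/TPA libraries both lay above their acetone pair, but the difference of 0.26 ± 0.16 was not called (edgeR adjusted p = 0.208). The 2 feedback inhibitors therefore had opposite signs in DMBA/TPA, with the call on Ahrr alone.

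Cyp1a1 (ENSMUSG00000032315, chromosome 9, 57687928 to 57703824, plus strand) is the most widely used readout of an active receptor. In Control DMBA it stood at 10.2 and 17.3 CPM, and in DMBA at 4.78 and 3.89. Control DMBA TPA gave 13.5 and 16.6, and DMBA/TPA 13.3 and 5.64. Both DMBA libraries were lower than the other 6, and the 2 DMBA/TPA libraries were far apart. The DMBA difference, -1.67 ± 0.40 on the log2 scale or 3.18-fold lower, was not called (edgeR unadjusted p = 0.00304, adjusted p = 0.171). It was called under 5 of 18 alternatives, DESeq2 among them (adjusted p = 0.001), and without either DMBA/TPA library (0.0355 and 0.0356). In DMBA/TPA the difference was -0.68 ± 0.39 (adjusted p = 0.194). It was -1.41 (adjusted p = 0.0104) without DMBA/TPA replicate 1 and -0.18 without replicate 2.

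Within each group, the library with more Cyp1a1 also had the higher sum of sebaceous gland markers, a pattern noticed after the values were seen. Hair shaft and melanocyte sums had the same order within each group. Between groups these 2 sums did not follow Cyp1a1, both being lowest in Control DMBA TPA (5.79 and 14.4 CPM, and 11.8 and 16.6). The sebocyte marker Scd3 had the opposite order in 2 groups, with 91 and 80 counts in Control DMBA and 2 and 12 in DMBA. The 7 sebocyte markers summed to 143.5 and 249.9 CPM for Control DMBA beside 98.6 and 58.6 for DMBA, and to 198.2 and 240.6 for Control DMBA TPA beside 184.5 and 106.1 for DMBA/TPA. The rank of Cyp1a1 equalled that of this sum in 8 of 8 libraries, and did so too with Pparg left out of the sum. Soat1 held the largest part of the sum, averaging 117.9 CPM in Control DMBA, where Pparg averaged 8.71. Leaving out Pparg could thus hardly alter a rank. Across libraries the highest Cyp1a1 level was 4.45 times the lowest, while Cyp1a1 per 100 CPM of sebocyte markers ran from 4.85 to 7.19, a ratio of 1.48. Of the 7 markers, 1 was called lower after DMBA (list median -1.49), where 0.267% of all genes were called in either direction. Called lower in DMBA/TPA were 2 (median -0.86), against 18.3% of all genes. In DMBA/TPA Elovl3 and Awat1 had differences above 0 (1.12 and 0.13), neither of them called. Between the acetone groups the differences were 3.74 for Scd3, which was called, and -1.32 for Elovl3, which was not. The genes nearest to Cyp1a1 over 8 libraries, by root mean square difference of centred log2 CPM, were Pparg (0.134), Scd1 (0.171) and Elovl6 (0.181), where the median over 10913 genes was 0.824. Pparg encodes a transcription factor and Scd1 and Elovl6 enzymes of fatty acid desaturation and elongation. The part of sebaceous gland, hair shaft or melanocyte content in the Cyp1a1 values was not tested.

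**Figure D3:**
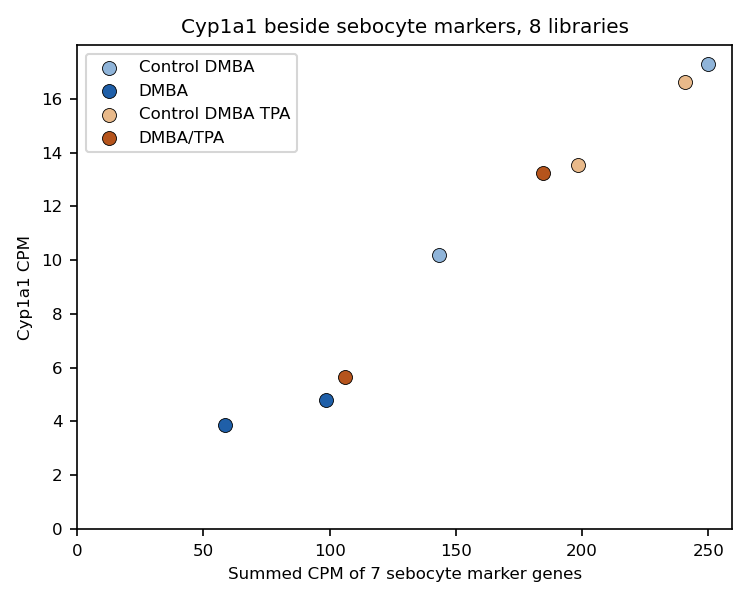
Cyp1a1 CPM against the summed CPM of 7 sebocyte markers, 1 point per library, coloured by group, on linear axes from 0. Points run from DMBA replicate 2 (58.6 and 3.89) to Control DMBA replicate 2 (249.9 and 17.3), with the order of libraries the same on both axes.

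Cyp1a2 (ENSMUSG00000032310, chromosome 9, 57676937 to 57683703, minus strand), a P450 best known from liver, lies 4224 bases from Cyp1a1 on the opposite strand. It had 0 counts in all 8 libraries, which allows a level of up to 0.0833 to 0.114 CPM per library (3 counts, counting error only). No comparison was made.

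Cyp1b1 (ENSMUSG00000024087, chromosome 17, 79701537 to 79715061, minus strand), the CYP1 enzyme of tissues outside the liver that activates DMBA, had the highest level per length of the 3 P450 genes in Control DMBA and in DMBA. Control DMBA gave 119.6 and 81.4 CPM and DMBA 82.3 and 84.8. Control DMBA TPA gave 23.6 and 37.6, beside 27.1 and 12.8 for DMBA/TPA. Both groups of the DMBA experiment were thus higher than both groups of the DMBA/TPA experiment, acetone included. Neither treatment difference was called, at -0.27 ± 0.34 for DMBA (edgeR adjusted p = 0.954) and -0.62 ± 0.35 for DMBA/TPA (0.188). Between the acetone groups, Cyp1b1 was 3.28-fold lower in Control DMBA TPA (-1.71 ± 0.35 on the log2 scale, adjusted p = 0.0306), where 4.28% of all genes were called lower. This call was lost without Control DMBA replicate 1 (0.102), either Control DMBA TPA library (0.232 and 0.084) or either DMBA library (0.0593 and 0.0604). With the replicate number as a block its adjusted p was 0.0549. Fibroblast and hair shaft markers were also lower in that group, 6 of 8 and 5 of 7 being called. In DMBA/TPA, where the Cyp1b1 mean was lowest, they summed to 1312 to 3523 and 369.0 to 2777 CPM. In its acetone group they summed to 48.4 to 63.6 and 5.79 to 14.4 CPM. In DMBA, with Cyp1b1 at 82.3 and 84.8 CPM, fibroblast markers summed to 60.6 to 108.2. The part of these cells in the Cyp1b1 difference was not tested.

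Ephx1 (ENSMUSG00000038776, chromosome 1, 180976210 to 181020904, minus strand), the microsomal epoxide hydrolase of the DMBA route, fell in DMBA/TPA. Control DMBA gave 121.5 and 91.1 CPM and DMBA 103.6 and 108.5. Control DMBA TPA gave 99.6 and 112.7, beside 60.7 and 46.4 for DMBA/TPA. The 3 groups without TPA had means of 106.3, 106.0 and 106.2 CPM, and both DMBA/TPA libraries lay below all 6. The fall was 0.99 ± 0.17 on the log2 scale, or 1.98-fold (edgeR adjusted p = 0.00367), and kept its call in all 17 alternatives run, with adjusted p up to 0.028. After DMBA the difference was -0.0035 ± 0.17 (adjusted p = 1). The responses differed by -0.98 ± 0.24 (adjusted p = 0.0357), a call lost without 6 of the 8 libraries in turn (0.0623 to 0.131; kept without Control DMBA replicate 1 and DMBA/TPA replicate 1).

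Aldh3a1 (ENSMUSG00000019102, chromosome 11, 61207537 to 61218421, plus strand) oxidises aldehydes from lipid peroxidation. Its levels were ordered from DMBA, at 132.0 and 133.7 CPM, through Control DMBA at 122.0 and 102.3 and Control DMBA TPA at 64.3 and 60.3, to DMBA/TPA at 51.0 and 42.1. No neighbouring pair of groups overlapped. The fall in DMBA/TPA was 0.42 ± 0.13 on the log2 scale (edgeR adjusted p = 0.0308). It was not called without either Control DMBA TPA library (0.152 and 0.08), either DMBA library (0.0528 and 0.0525) or DMBA/TPA replicate 2 (0.149). After DMBA the difference was 0.24 ± 0.13 (adjusted p = 0.645), and the responses differed by -0.66 ± 0.18 (adjusted p = 0.0469; 0.0891 to 0.16 without 6 of the libraries in turn). The larger step was between the acetone groups, where Aldh3a1 was 1.80-fold lower in Control DMBA TPA (-0.85 ± 0.13, adjusted p = 0.0123). The Aldh3a1 call between acetone groups was lost without Control DMBA TPA replicate 1 or 2. Markers on several lists were also lower in that group. Calls there were 6 of 8 fibroblast, 5 of 7 hair, 4 of 8 endothelial, 3 of 5 melanocyte and 3 of 6 hyperplasia genes, against 4.28% of all genes. So were 1 of 5 mast cell and 1 of 2 adipocyte genes. Called higher were 2 of 6 suprabasal, 1 of 7 sebocyte and 1 of 7 macrophage genes. Basal, Langerhans cell and T cell lists held no call. In DMBA/TPA, where Aldh3a1 was lowest, the fibroblast, hair, endothelial, melanocyte and hyperplasia genes were mostly called higher than in its acetone group. In the same order, 7 of 8, 7 of 7, 7 of 8, 5 of 5 and 6 of 6 were called higher, against 22.4% of all genes. After DMBA, where Aldh3a1 was highest, 2 of 8 fibroblast and 1 of 7 sebocyte markers were called lower. There 0.267% of all genes were called in either direction. The part of these cells in the Aldh3a1 difference was not tested.

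In the acetone comparison 2 of 8 members were called, Cyp1b1 and Aldh3a1, both lower, against 4.28% of all genes called lower. The other 6 had log2 differences between -0.0015 for Ephx1 and 0.44 for Ahrr. Groups did not overlap for 5 of the 8, with 2 lower and 3 higher in Control DMBA TPA, against 31.4% and 28.8% of all genes. In DMBA/TPA, 6 members lay wholly below and 1 wholly above the acetone pair, against 37.3% and 37.6% of all genes. In DMBA, 2 lay below and 2 above, against 20.2% and 19.1%.

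Lists of genes around the receptor held calls in both directions in DMBA/TPA. Their counts stand beside the 22.4% of all tested genes that rose and the 18.3% that fell. Of 22 tested genes known as receptor-regulated in some tissue, 11 rose and 1 fell, with a median log2 difference of 0.85. The barrier protein gene Flg went from 354.3 and 320.1 CPM to 4341 and 4501 (3.71 ± 0.31, edgeR adjusted p = 0.000377), and the purine oxidase gene Xdh from 92.5 and 81.8 to 231 and 372 (1.79 ± 0.24, adjusted p = 0.00139). Nqo1, the quinone reductase induced by both this receptor and NRF2, rose from 2.72 and 4.09 CPM to 9.44 and 11.3 (1.60 ± 0.25, adjusted p = 0.00255). The cytokine gene Il1b rose by 2.65 ± 0.60 (adjusted p = 0.00986) from 0.384 and 0.495 CPM, a call lost without either Control DMBA TPA library or DMBA/TPA replicate 2 (0.0524 to 0.0693). These genes have other regulators too. The marker list holds 6 genes of hyperplastic epidermis, Krt6a and Krt16 among them. They summed to 10660 to 28784 CPM in DMBA/TPA against 949.7 to 1396 in its acetone group. The part of the receptor or of hyperplasia in the receptor-regulated list was not tested. In DMBA, edgeR and DESeq2 called 0 of the 22, with 1 at an unadjusted p under 0.05, and Nqo1 stood at 9.82 and 7.64 CPM against 7.09 and 6.04 (0.41, adjusted p = 0.716).

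Of 29 conjugation and hydrolysis genes, which act after the P450 step, 10 rose and 6 fell in DMBA/TPA, with a median of -0.12. Gsta4, a glutathione transferase for lipid aldehydes, rose from 3.07 and 3.55 CPM to 54.0 and 196 (5.23 ± 0.59, edgeR adjusted p = 0.000831). Among the others, the aldo-keto reductase gene Akr1b8 rose by 3.36 ± 0.33 (adjusted p = 0.000569) and the glutathione transferase gene Gsto1 by 3.15 ± 0.44 (0.0018). The efflux pump gene Abcb1a rose by 3.26 ± 0.64 (0.00579) from 3 and 3 counts to 14 and 33. The 19 other aldehyde dehydrogenase genes included 9 that rose and 4 that fell (median 0.58). The retinaldehyde dehydrogenase gene Aldh1a3 rose from 0.384 and 0.962 to 35.2 and 59.1 CPM (6.08 ± 0.98, adjusted p = 0.00287). Aldh1l2, a mitochondrial folate enzyme gene, rose by 2.63 ± 0.33 (0.00115), and Aldh1a2 by 2.92 ± 0.74 (0.0159) from 3 and 2 counts to 21 and 10. Against Control DMBA, where Aldh1a2 stood at 4.10 and 5.30 CPM, the same DMBA/TPA libraries were lower (-2.94 on the log2 scale). Aldh1a7 fell by 2.18 ± 0.49 (0.01), a value that is uncertain because Aldh1a1 is a near copy. Reads without a unique alignment had a summary row of their own (5.67 to 8.69% of reads). Whether any were also counted in genes is not stated in the sources used here. Without Control DMBA TPA replicate 2 the calls on Abcb1a (0.0503), Aldh1a7 (0.0632) and Aldh1a2 (0.0935) were lost, the last also without Control DMBA TPA replicate 1 (0.0565) or DMBA/TPA replicate 1 (0.0764).

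Genes of electron supply and of haem synthesis, binding and breakdown gave 6 higher and 3 lower of 12 in DMBA/TPA (median 0.22). The 6 that rose included the haem oxygenase genes Hmox1 and Hmox2, so the count is not one of supply to P450 enzymes alone. Por, the reductase that feeds electrons to P450 enzymes, rose from 75.6 and 76.6 to 134.8 and 209.6 CPM (1.18 ± 0.22, edgeR adjusted p = 0.00474), with no call after DMBA (-0.05, adjusted p = 0.993). The haem oxygenase gene Hmox1 rose by 1.43 ± 0.17 (0.000958), and the haem synthesis genes Cpox by 1.04 ± 0.17 (0.00322) and Alas1 by 0.88 ± 0.15 (0.0032). The 3 that fell, named after their values were seen, were Fech, the last enzyme gene of haem synthesis, by 0.47 ± 0.10 (0.00811), the cytochrome b5 reductase gene Cyb5r3 by 0.51 ± 0.11 (0.00738) and the haem-binding membrane protein gene Pgrmc1 by 0.52 ± 0.15 (0.0221). Without Control DMBA TPA replicate 1 Cyb5r3 and Pgrmc1 were not called (0.0539 and 0.116), nor Fech and Pgrmc1 without replicate 2 of that group (0.068 and 0.0625), nor Pgrmc1 without DMBA/TPA replicate 2 (0.0827).

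Chaperones, cofactors and turnover factors of the receptor gave 5 higher and 7 lower of 20 in DMBA/TPA (median -0.17). The coactivator genes Ncoa7 and Ncoa1 fell by 1.16 ± 0.23 (edgeR adjusted p = 0.00619) and 0.61 ± 0.11 (0.00436), and the corepressor gene Nrip1 fell by 0.60 ± 0.09 (0.00223). Against the other acetone group the same DMBA/TPA libraries gave 0.24 for Nrip1 and -0.07 for Ncoa1 (adjusted p = 0.0939 and 0.668). The kinase gene Src rose by 0.68 ± 0.17 (0.0133; 0.101 without Control DMBA TPA replicate 1 and 0.0529 without DMBA/TPA replicate 2). Against all 4 acetone libraries 3 of the 20 were called, and without Control DMBA TPA replicate 1 also 3.

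Of 8 tested bHLH-PAS relatives, 1 rose and 2 fell in DMBA/TPA (median -0.02). The hypoxia factor gene Epas1 rose from 30.1 and 33.8 to 126.2 and 157.6 CPM (2.15 ± 0.17, edgeR adjusted p = 0.000328). The clock gene Npas2 fell by 1.68 ± 0.29 (0.0039) and Arnt2, a second ARNT-type partner, by 1.22 ± 0.22 (0.00418). Hif1a was at 131.7 and 129.6 CPM in the acetone group and 150.1 and 173.0 after DMBA/TPA, a difference of 0.31 ± 0.11 that was not called (0.0523; 0.0179 without DMBA/TPA replicate 1), and of -0.27 after DMBA (0.475).

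Enzymes that make or remove tryptophan-derived ligands gave 3 higher and 3 lower of 9 in DMBA/TPA (median 0.21). Kmo, the kynurenine hydroxylase gene, rose by 2.55 ± 0.66 (edgeR adjusted p = 0.0167) to 0.983 and 1.25 CPM. Maob, Kynu and Kyat3, whose products break down amines or kynurenines, fell by 2.04 ± 0.22 (0.000736), 1.41 ± 0.30 (0.00795) and 0.81 ± 0.27 (0.0404). Their relatives Maoa and Kyat1, named after their values were seen, rose by 0.35 ± 0.12 (0.0469) and 0.58 ± 0.09 (0.00272), the Maoa call being lost without any 1 of the 8 libraries (0.0509 to 0.246). Kmo and Kyat3 were not called without Control DMBA TPA replicate 2 (0.116 and 0.153) or DMBA/TPA replicate 2 (0.0721 and 0.182), nor Kynu and Kyat3 without Control DMBA TPA replicate 1 (0.0587 and 0.103). Among 11 relatives of TIPARP in the PARP family, Parp4 fell in DMBA/TPA by 0.49 ± 0.10 (0.00674; 0.0549 without Control DMBA TPA replicate 1) and none rose. After DMBA, Parp14 rose from 33.1 and 29.3 to 61.0 and 63.9 CPM (1.00 ± 0.13, adjusted p = 0.0343), the 1 edgeR call there among all 8 lists. In the other 7 lists 0 to 8 genes had an unadjusted p under 0.05. DESeq2 called 2 conjugation genes, 1 aldehyde dehydrogenase gene and 1 bHLH-PAS gene there, where it called 2.24% of all genes. Parp14 was not called by edgeR without either Control DMBA library, either DMBA library or Control DMBA TPA replicate 2. With the replicate block its adjusted p was 0.084.

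**Figure D4:**
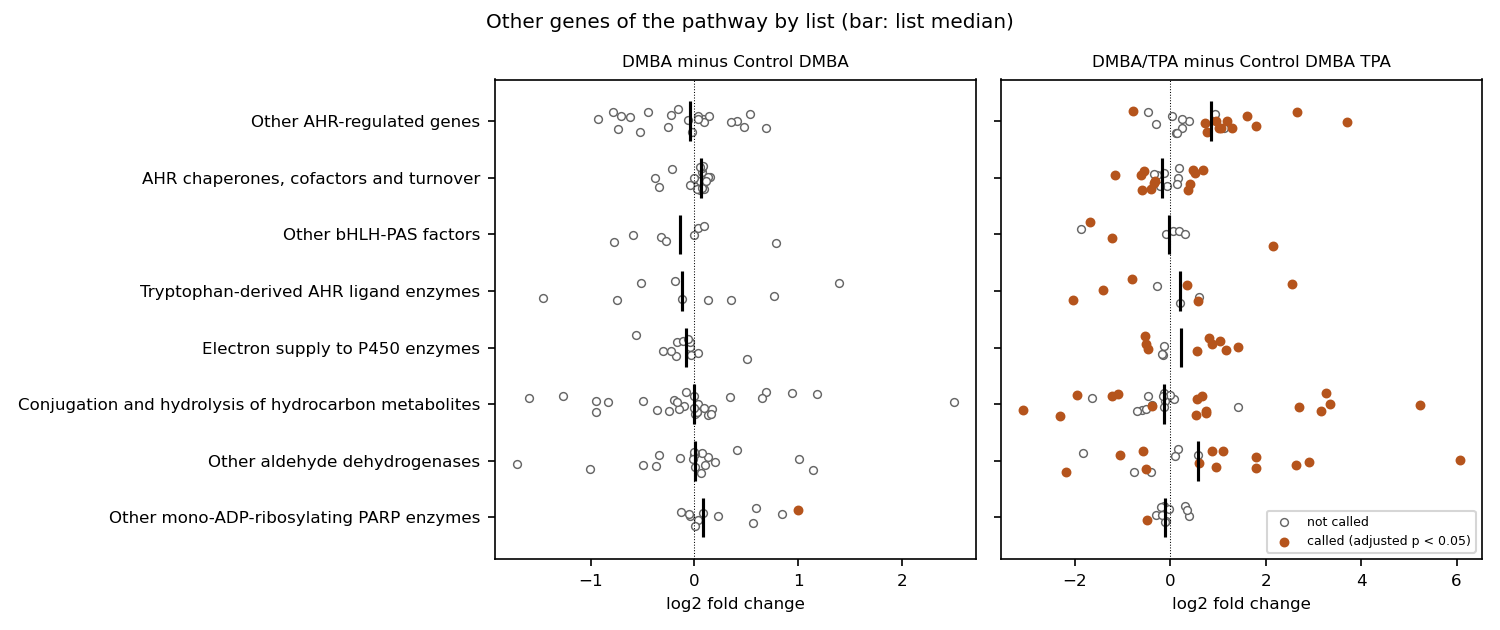
Log2 fold change of every tested gene of the 8 pathway lists (1 point per gene, shifted vertically for legibility) in DMBA on the left and DMBA/TPA on the right, on axes of different range, with filled points where edgeR's adjusted p was under 0.05 and a bar at the list median. The DMBA side holds 1 filled point, Parp14, and the DMBA/TPA side shows receptor-regulated genes split 11 to 1 and aldehyde dehydrogenases 9 to 4.

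Genes whose pattern was most like that of Ahr over the 8 libraries were Plekha2 (root mean square difference of centred log2 CPM 0.0634), Clec2d (0.0808) and Efna3 (0.0923), where the median over 10913 genes was 0.408. Clec2d, which encodes a lectin-like ligand of lymphocyte receptors, ran from 69.2 CPM in DMBA/TPA replicate 2 to 145.2 in Control DMBA TPA replicate 1. Plekha2 was lowest in DMBA/TPA, at 36.3 and 26.9 CPM, as was the ephrin gene Efna3 at 128.3 and 97.9.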

How the data were processed

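The deposited counts are whole numbers per Ensembl gene in 8 libraries of rRNA-depleted, directional total RNA. The submitters' processing notes name TopHat2, Bowtie2, cutadapt, FastQC and the mm10 build, without versions; no program, annotation or strand handling for counting is stated in the sources used here. Overlapping genes held few counts beside the members (for Ahr 164 against 46557). The 5 summary rows were left out of library sizes and tests: 32.9 to 42.1% of reads had no feature and 3.80 to 16.4% were not aligned, the highest in DMBA/TPA replicate 2, leaving 35.2 to 43.3% in genes. Symbols came from GENCODE M21 (55227 of 55487 rows matched). No column of the files was left unused.

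All 8 libraries were fitted together in edgeR 4.0.16 (R 4.3.3) with 1 mean per group, TMM factors, filterByExpr (minimum count 10, total 15) and the quasi-likelihood F test, with Benjamini-Hochberg adjustment over 19450 genes and calls at an adjusted p under 0.05. Standard errors were taken as the size of the log2 difference divided by the root of its F statistic. The script was tested on simulated data. Alternatives were RLE factors, library totals, no filter, only the compared groups, other acetone libraries as control, a replicate block, limma voom 3.58.1, DESeq2 1.42.0 and leaving out each library. Replicate libraries were not duplicates of each other.

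The members and lists were chosen with earlier results of these data known. Named genes are all members, up to 4 called genes per pathway list with the largest change, Nqo1, Por and Hif1a, 5 further genes named after their values were seen, and the 3 genes (mean of at least 5 CPM) nearest to Ahr and to Cyp1a1 in pattern. Promoters are from RefSeq. Counts limit precision to counting error plus the spread of 2 libraries a group.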

Additional observations from a re-analysis of the deposited data

Results flagged for a closer look

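For 3 of 8 members the DMBA/TPA response was called lower than the DMBA response (edgeR, adjusted p under 0.05), against 3.95% of all genes. Each of the 3 calls was lost when certain single libraries were left out, as given above for each gene. The Ahr responses differed by -0.97 on the log2 scale, with both DMBA/TPA libraries below their acetone pair and both DMBA libraries above theirs. For Ephx1 the difference was -0.98, with overlapping groups after DMBA, and for Aldh3a1 -0.66, again with opposite signs. Harvest day, TPA, the acetone group and possibly age at harvest differ together between these responses and cannot be told apart. Groups of 2 are too small to look for a single library that stands out.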

How the results depend on the processing

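Counts of members called depended on the setting. After DMBA the count of 0 became 1 with no low-count filter and with DESeq2, 4 against the other acetone group, and 0 to 1 with a library left out. In DMBA/TPA the count of 5 became 3 with only the compared groups and 3 against all 4 acetone libraries, and ran from 1 (without Control DMBA TPA replicate 1) to 7 with a library left out. The difference of responses, 3 members, ran from 0 to 3, and the acetone comparison, 2 members, from 0 to 2. Over all genes the calls after DMBA, 52, became 661 with no filter, 3210 against the other acetone group, 428 with DESeq2 and 4 to 176 with a library left out. In DMBA/TPA, 7917 became 4632 against all 4 acetone libraries, 3766 against the other acetone group and 3704 to 8901 with a library left out. For the difference of responses 2460 became 4041 with no filter and 467 to 5359 with a library left out, and for the acetone groups 1216 became 2451 with no filter, 1955 with only these groups, 2087 with DESeq2 and 43 to 2598 with a library left out.

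Deviations of same-numbered libraries correlated at -0.21 between Control DMBA and DMBA and at -0.03 between Control DMBA TPA and DMBA/TPA. The highest value for any 2 groups was 0.087, for Control DMBA and DMBA/TPA. With 2 libraries a group these values cannot settle whether replicate numbers pair the libraries. With the replicate block, 0, 5, 3 and 1 members were called in the 4 comparisons, the lost acetone call being Cyp1b1, and 5 genes in all after DMBA. The crossed replicate block, chosen after seeing the data, gave 0 members and 41 genes after DMBA.

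Among the members and named genes, Aldh1a2 and Nrip1 in DMBA/TPA were the called differences whose sign turned, both with other acetone libraries as control. Ephx1 after DMBA was 0.000578 with RLE factors, 0.000888 with no filter, 0.0078 with the replicate block, 0.0064 with the crossed block, 0.011 with voom, 0.000564 with DESeq2 and -0.19 to 0.22 with a library left out. Between acetone groups Ephx1 was 0.0081 with RLE factors, 0.012 with the block, 0.0028 with only these groups, 0.012 with voom, 0.0081 with DESeq2 and -0.19 to 0.24 with a library left out. Against all 4 acetone libraries and against the other acetone group, in that order, Tiparp after DMBA was -0.11 and -0.26, Cyp1b1 after DMBA 0.35 and 1.45 (adjusted p = 0.0273), Por after DMBA 0.019 and 0.087, and Aldh1a2 in DMBA/TPA -1.97 and -2.94 (adjusted p = 0.00659). Nrip1 in DMBA/TPA was 0.24 against the other acetone group. With a library left out, Arnt after DMBA ran from -0.026 to 0.0064, Tiparp after DMBA from -0.17 to 0.27, Cyp1b1 after DMBA from -0.52 to 0.040, Por after DMBA from -0.27 to 0.23, Cyp1a1 between acetone groups from -0.18 to 0.57, and the difference of responses from -0.0098 to 0.42 for Tiparp and from -0.98 to 0.090 for Cyp1b1. The cause was not tested.

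Against the other acetone group, DMBA gained Ahrr (-1.07, adjusted p = 0.0371), Cyp1a1 (-1.80, 0.0214) and Aldh3a1 (1.09, 0.00273). In DMBA/TPA Cyp1b1 (-2.33, 0.00598) and Tiparp (0.59, 0.0347) were gained. Library totals moved the median of all genes by -0.12 in DMBA/TPA; relative to that median Ahr was at -0.75, Arnt at -0.26 and Ephx1 at -0.98. Genes called in the lists in DMBA/TPA ran, with a library left out, from 7 to 14 (receptor-regulated), 3 to 13 (cofactors), 3 to 5 (tryptophan), 5 to 9 (electron supply), 8 to 19 (conjugation), 8 to 15 (aldehyde dehydrogenases) and 0 to 2 (PARP), the lowest without Control DMBA TPA replicate 1 or 2. Against the other acetone group they were 4 (cofactors), 6 (bHLH-PAS), 5 (electron supply) and 10 (conjugation), and 2 to 8 a list after DMBA. There the calls in DMBA/TPA on Kyat3, Kynu, Ncoa1, Nqo1, Parp4, Src, Fech, Pgrmc1 and Abcb1a were lost (0.0855 to 0.711). With no filter 5 conjugation genes were called after DMBA. The Ahrr call in DMBA/TPA had an adjusted p of 0.0514 against the other acetone group.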
